A study of Mus musculus with 3 samples.

Results

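The Sox2 locus on mouse chromosome 3, from 100 kb before to 200 kb after the start of the gene (GRCm38, the assembly also called mm10), was examined for accessible chromatin in 3 ATAC-seq libraries. ATAC-seq cuts open DNA with the Tn5 transposase, and a peak is a stretch where such cuts pile up. Every peak overlapping this 300 kb window was taken, by position alone. These were 21 of the 88898 peaks of the Halo-Sox2 list, 18 of the 83995 peaks of the Halo-Sox2a list and 18 of the 72638 control peaks. Merging peaks that overlap gave 30 regions, of 130664 in the whole genome.

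All lines were CGR8-derived embryonic stem cells of the mouse, grown in serum with LIF and the inhibitors CHIR99021 and PD184352. The line SES4.1 expressed Halo-tagged Sox2 after 20 h of 300 ng/mL doxycycline. The line SES5.1 expressed Halo-Sox2a, a form of the protein that the labels name without describing, after 20 h of 70 ng/mL doxycycline. Both were stained with 50 nM Halo dye and sorted through a common intensity gate. SES11, the control line, lacks a doxycycline-inducible transgene, and its labels name no doxycycline dose, stain or sort. Each group is 1 library from 1 line, so line, dose and transgene cannot be told apart, no difference has a replicate check, and no test between groups was possible. In comparisons with the control, doxycycline treatment, staining and sorting cannot be told apart from these either.

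Sox2 is a DNA-binding factor of the SOX family that keeps embryonic stem cells pluripotent, largely by binding enhancers together with Oct4 (Pou5f1). Its intronless gene lies inside the long non-coding gene Sox2ot and is flanked by stretches without other protein-coding genes. In embryonic stem cells its transcription depends on a cluster of enhancers far downstream, known as the Sox2 control region, which Sox2 itself also binds.

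In the RefSeq annotation, Sox2 (gene 20674) runs from 34649995 to 34652461 on the plus strand and is 2467 bp long. The 250 bases before its start (chr3:34649745-34649994, GRCm38.p6, plus strand, RefSeq) are shown because they held a peak in 2 of the 3 lists. Capitals mark matches to the CCAAT box (CCAAT, 1 match) and the GC box (GGGCGG, 2 matches), each searched on both strands.

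Sox2 promoter: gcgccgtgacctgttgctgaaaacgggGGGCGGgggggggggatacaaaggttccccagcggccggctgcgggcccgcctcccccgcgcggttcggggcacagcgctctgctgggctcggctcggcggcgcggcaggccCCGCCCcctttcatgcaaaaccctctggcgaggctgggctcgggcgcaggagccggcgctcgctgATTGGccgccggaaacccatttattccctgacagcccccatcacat

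This stretch is 72.0% G and C, against a median of 55.2% over the same window of 17492 protein-coding genes. CCAAT occurred in 36.3% and GGGCGG in 42.7% of those promoters. The SOX core ACAAT was in 25.9% of them, the octamer ATGCAAAT in 1.61% and the composite SOX-OCT motif in 0.00572%. No exact match to any of the 3 was found in these 250 bases of Sox2. Other variants of these motifs were not searched.

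A peak's score is the authors' own whole number, and its scale is not stated. It was used only to order the peaks of a list. A percentile here is the share of peaks of the same list that score no higher, and rank 1 is the highest score. The lowest score was 13 in every list and the median widths were 455 to 493 bp. Peaks crowded the window more than the genome at large. The median 300 kb tile of the autosomes and X held 9 Halo-Sox2 peaks (quartiles 4 and 15), 7 Halo-Sox2a peaks (3 and 15) and 7 control peaks (3 and 12). A peak within 1 kb of an annotated gene end was found for 5, 7 and 6 of 8 embryonic stem cell markers with Halo-Sox2, with Halo-Sox2a and in the control. The same held in every list for 4 of 5 fibroblast, 3 of 4 primitive endoderm and 4 of 4 neural markers, so gene-end peaks gave no check of the labelled cell type.

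**Figure D1:**
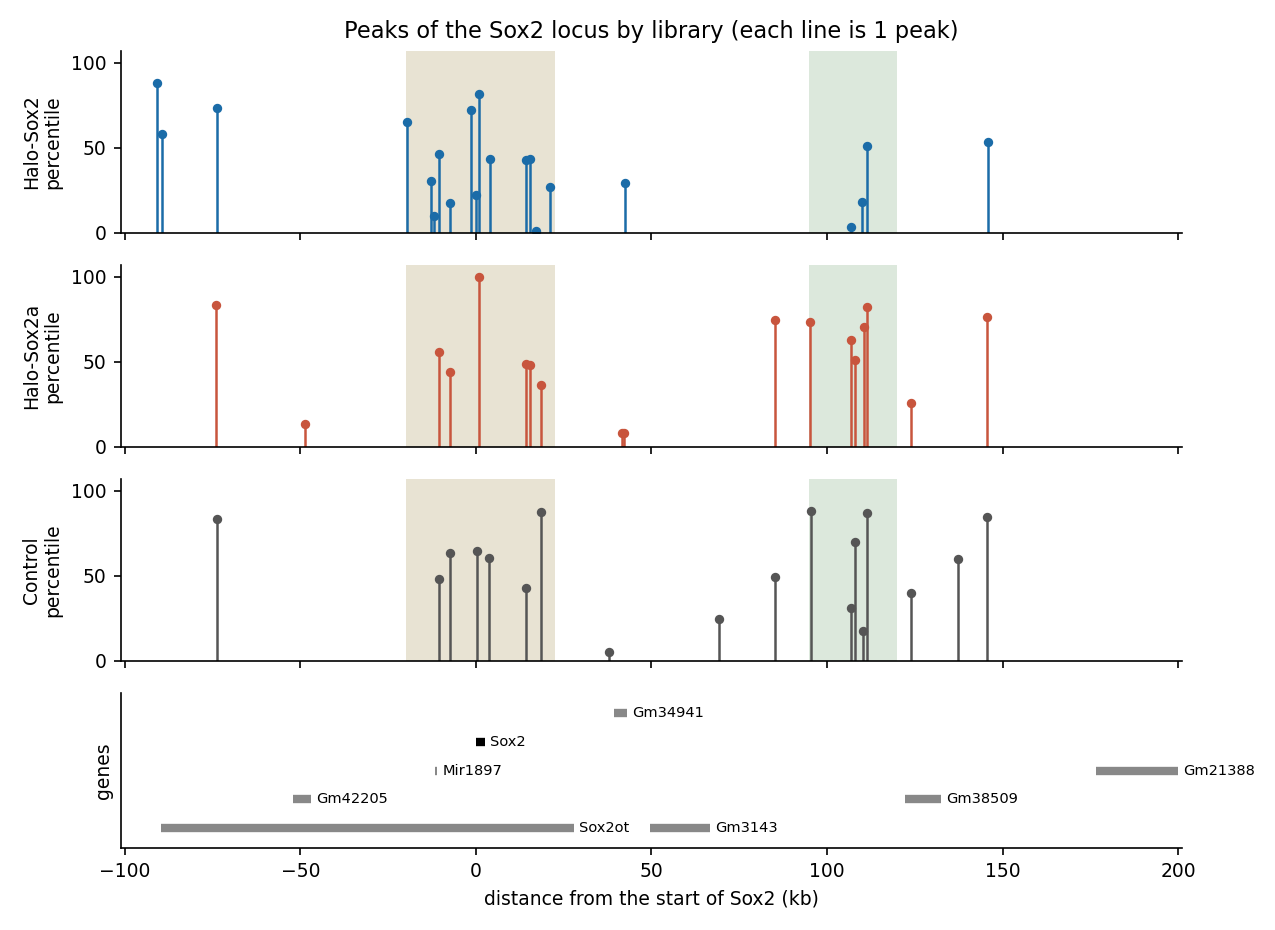
Peaks of the 300 kb window in each library, with the distance from the start of Sox2 on the x axis (kb) and the within-list score percentile on the y axis. Each line is 1 peak, the brown band is the gene with 20 kb on either side, the green band is 95 to 120 kb downstream, and the lowest panel shows annotated genes (Gm21388 continues past the window). Halo-Sox2 peaks are most numerous in the brown band (13, of which 3 stand at or above percentile 50), and all 5 Halo-Sox2a peaks of the green band stand above percentile 50.

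Over the gene itself, the lists differed in where the peak lay. The control peak spanned the promoter and the first part of the gene, from -354 to 968 bp relative to the start (34649641 to 34650963, 1323 bp). It had a score of 120 and ranked 25738, at percentile 64.6. The Halo-Sox2 list held a pair of separate peaks there. The first, from -344 to 166 bp (34649651 to 34650161, 511 bp), covered the promoter at percentile 22.0. The second lay within the gene, from 501 to 1341 bp (34650496 to 34651336, 841 bp), with a score of 400, rank 16278 and percentile 81.7. The Halo-Sox2a list held a single peak, from 421 to 1370 bp (34650416 to 34651365, 950 bp), with a score of 12707 and rank 2.

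The Halo-Sox2a peak and the second Halo-Sox2 peak thus covered nearly the same middle part of the gene, the former reaching further on both sides. Neither touched the promoter, which was covered by the control peak and by the lower Halo-Sox2 peak. In the Halo-Sox2a list only a mitochondrial peak (score 17991) ranked above the one over Sox2, and the next nuclear peak, on chromosome 9, scored 5775. Among protein-coding promoters (250 bases before to 50 after the start) with a peak in both the Halo-Sox2 and the control list, 10020 in all, 1.17% had none in the Halo-Sox2a list, and Sox2 was among these. Counting peaks up to 500 bp away, a choice made after the values were seen, removed Sox2 from that group, since its Halo-Sox2a peak then counted.

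The table used here gives no exon, coding or untranslated bounds, and the labels give no transgene sequence. Where transgene and gene share sequence, reads from either cannot be told apart in a peak list. Width also bears on the percentile: among peaks within 25% of its own width, the control peak over Sox2 stood at percentile 19.0 and the higher Halo-Sox2 peak at 60.5.

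**Figure D2:**
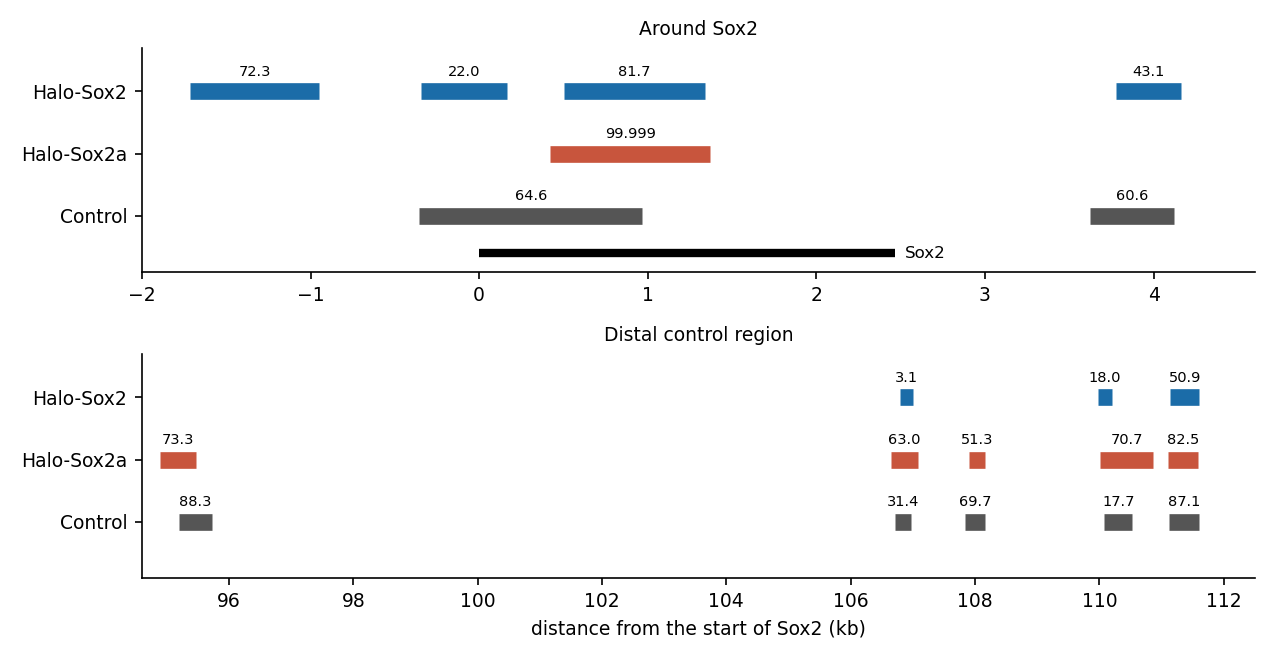
Extent of each peak around Sox2 (upper panel) and in the distal control region (lower panel), with the distance from the start of Sox2 on the x axis (kb) and 1 row per library. Bars are peaks to scale, the number over each bar is its within-list score percentile, and the black bar is the gene. The Halo-Sox2a row has 1 peak around the gene, from 421 to 1370 bp, and none over the start.

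The 3 protein-coding genes most like Sox2 in the percentile of the highest peak over the gene, by the largest difference in any of the 3 libraries, were Dpm1, Smad7 and Npm1. They were picked among 15312 genes with a peak in every list. Dpm1 stood at percentiles 84.0, 95.6 and 65.0 in the Halo-Sox2 list, the Halo-Sox2a list and the control list, within 4.4 points of Sox2. Smad7 stood at 87.0, 95.4 and 69.9, within 5.3 points. Npm1 stood at 78.7, 94.5 and 70.3, within 5.7 points. The order of their libraries follows from how they were picked, and none reached the percentile of Sox2 with Halo-Sox2a (99.999).

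Within 20 kb of either end of the gene, the Halo-Sox2 list held 13 peaks, against 6 in each other list. The 13 include both Halo-Sox2 peaks over the gene itself. With lists of equal size there were 10 Halo-Sox2 peaks, 6 Halo-Sox2a peaks and 6 control peaks. In the full lists, 3 peaks with Halo-Sox2, 2 with Halo-Sox2a and 4 in the control were at or above percentile 50. Of the 13 Halo-Sox2 peaks, 7 overlapped no control peak, beside 49.3% of all Halo-Sox2 peaks. Halo-Sox2 peaks covered 14.2% of this 42.5 kb stretch, compared with 7.78% for Halo-Sox2a and 8.98% for the control. Of the 13 regions there, all of them inside Sox2ot, 6 were found with Halo-Sox2 alone, a class that held 24.3% of all regions in the genome. The highest of these had its middle at -1.3 kb (34648280 to 34649045, 766 bp), at percentile 72.3, just upstream of the promoter. The next, at -19.6 kb (34630096 to 34630717), stood at 64.9. The others were low, with percentiles of 30.4 at -12.8 kb, 9.75 at -12.0 kb, 0.999 at 17.0 kb and 26.6 at 21.2 kb.

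The regions shared by all lists within 20 kb upstream of Sox2 differed in rank. At -10.4 kb the percentiles were close, at 46.2 with Halo-Sox2, 55.8 with Halo-Sox2a and 48.5 in the control. At -7.4 kb they were 17.5, 44.1 and 63.7, so the Halo-Sox2 peak stood 46.2 points below the control. That Halo-Sox2 peak was also the narrowest of the 3, at 335 bp against 464 bp with Halo-Sox2a and 655 bp in the control.

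Downstream of the gene, a peak 3.9 kb from the start was held by the control (34653617 to 34654116, percentile 60.6) and by Halo-Sox2 (34653771 to 34654160, percentile 43.1). The Halo-Sox2a list had none there. A proximal enhancer bound by Sox2 and Oct4 is known just downstream of the gene, and whether this peak is that element was not tested. At 14.3 kb all lists had a peak of similar standing, at percentiles 42.8, 49.0 and 42.7 with Halo-Sox2, with Halo-Sox2a and in the control. A region at 15.3 kb was held by Halo-Sox2 (43.5) and Halo-Sox2a (47.9) without the control.

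The region at 18.5 kb was the one where Halo-Sox2a stood furthest below the control. The control peak (34668294 to 34668756, 463 bp) stood at percentile 87.6 and the Halo-Sox2a peak (34668514 to 34668743, 230 bp) at 36.6, or 51.0 points lower, and Halo-Sox2 had no peak. Beside the gene, Halo-Sox2a peaks lay between percentiles 36.6 and 55.8 (5 peaks), Halo-Sox2 peaks between 0.999 and 72.3 (11 peaks) and control peaks between 42.7 and 87.6 (5 peaks). Whether the very high peak over Sox2 bears on the calling of its neighbours in the Halo-Sox2a list was not tested.

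The distal control region, taken as 95 to 120 kb downstream of the start, held 5 regions. The control and Halo-Sox2a lists had a peak in all 5 and Halo-Sox2 in 3. Median percentiles were 18.0 with Halo-Sox2 (3 peaks), 70.7 with Halo-Sox2a (5 peaks) and 69.7 in the control (5 peaks). These medians cover unlike sets of regions. Those of Halo-Sox2a and the control take in the region at 95.3 kb (73.3 and 88.3), at the edge of the zone. Without that region both are lower, the control median by more, so their near equality depends on where the zone begins. With narrower bounds that leave it out, the zone held 3 Halo-Sox2, 4 Halo-Sox2a and 4 control peaks. At the 3 regions held by all lists, Halo-Sox2 stood at 3.08, 18.0 and 50.9. There Halo-Sox2a stood at 63.0, 70.7 and 82.5 and the control at 31.4, 17.7 and 87.1. Halo-Sox2 peaks covered 3.58% of the 25.0 kb, compared with 10.5% for Halo-Sox2a and 8.12% for the control. None of the 5 regions overlapped an annotated gene.

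The peaks nearest to the gene in this zone lay at 95.3 kb. The control peak (34745186 to 34745716) stood at percentile 88.3, the highest of the control peaks in the window, and the Halo-Sox2a peak (34744880 to 34745461) at 73.3. Their middles were apart, at 95.456 and 95.175 kb. Halo-Sox2 had no peak there, nor at 108.0 kb, where the control stood at 69.7 and Halo-Sox2a at 51.3.

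Regions of all 3 lists lay at 106.9, 110.4 and 111.4 kb. At 106.9 kb the percentiles were 3.08 with Halo-Sox2 (206 bp wide), 63.0 with Halo-Sox2a (436 bp) and 31.4 in the control (250 bp). At 110.4 kb they were 18.0 (229 bp), 70.7 (861 bp) and 17.7 (449 bp). At 111.4 kb they were 50.9, 82.5 and 87.1, with similar widths of 461, 488 and 489 bp.

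Halo-Sox2 therefore stood below Halo-Sox2a at each of these 3 regions, by 60.0, 52.7 and 31.6 points. Against the control it stood 28.3 and 36.2 points lower at 106.9 and 111.4 kb, and 0.2 points higher at 110.4 kb. Halo-Sox2a stood 31.7 and 53.0 points above the control at 106.9 and 110.4 kb and 4.5 points below it at 111.4 kb. The Halo-Sox2a peak at 110.4 kb ended at 110868 bp from the start of Sox2, the control peak at 110529 bp and the Halo-Sox2 peak at 110207 bp, while all 3 began between 109979 and 110081 bp. When each list was cut to its 72638 highest scores, the Halo-Sox2 peaks at 106.9 and 110.4 kb dropped out and 1 was left in the zone. Halo-Sox2a kept 5. The control list has 72638 peaks in all, so the cut could remove none of its 5. At 110.4 kb the control peak stood at percentile 17.7, beside 18.0 for the Halo-Sox2 peak that dropped out.

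**Figure D3:**
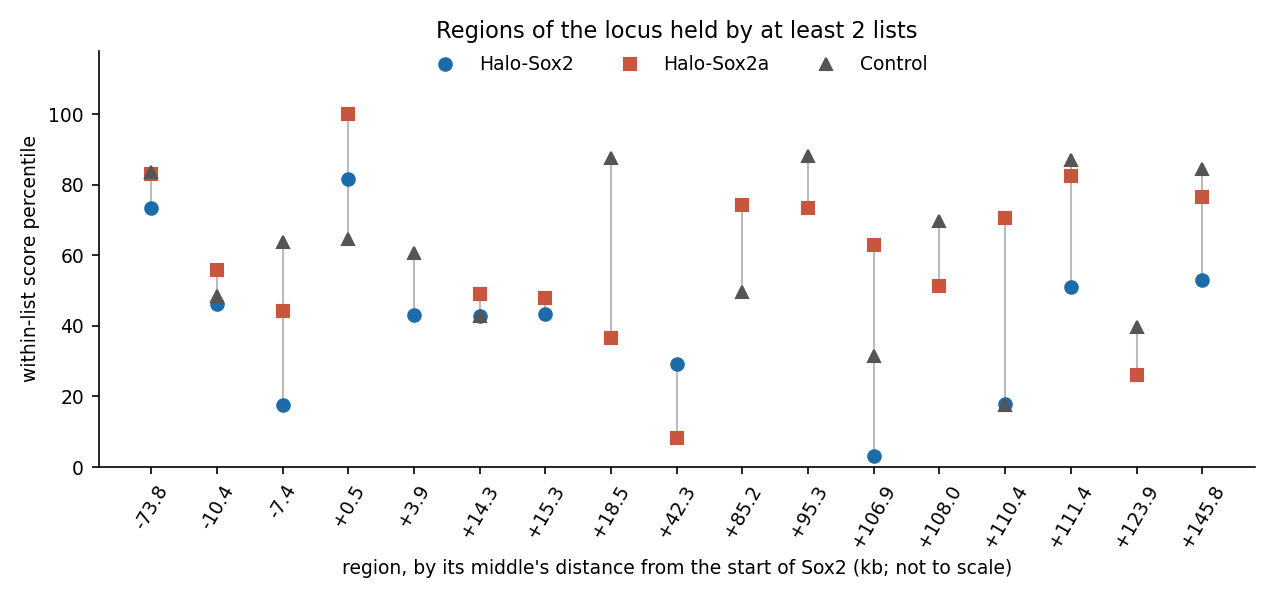
Within-list score percentile (y axis) of each list's highest peak in the 17 regions held by at least 2 lists, ordered along the chromosome and labelled by distance from the start of Sox2 (kb). Symbols are libraries and grey lines join the lowest and highest value of a region. At 106.9, 110.4 and 111.4 kb the Halo-Sox2 circle lies 31.6 to 60.0 points below the Halo-Sox2a square.

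The remaining parts of the window held 12 regions. Upstream, all lists had a peak at -73.8 kb inside Sox2ot, at percentiles 73.4, 83.2 and 83.6 with Halo-Sox2, with Halo-Sox2a and in the control. Halo-Sox2 alone had a peak at -90.8 kb (34558912 to 34559428, 517 bp), its highest in the window at percentile 88.1. It alone also had one at -89.4 kb (34560106 to 34561017, 912 bp, percentile 58.0), which spans 34560381, the annotated bound of Sox2ot farther from Sox2. Halo-Sox2a alone had a low peak at -48.6 kb, at percentile 13.5, over the non-coding gene Gm42205.

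Between the gene and the distal zone the highest Halo-Sox2a and control peaks shared a region at 85.2 kb, at percentiles 74.4 and 49.6. The only Halo-Sox2 peak there, at 42.3 kb within the non-coding gene Gm34941, stood at 29.2 and overlapped a Halo-Sox2a peak at 8.13. Beyond 120 kb all lists shared a region at 145.8 kb, at percentiles 53.1, 76.5 and 84.5 with Halo-Sox2, with Halo-Sox2a and in the control. The control alone had one at 137.3 kb (60.1), and Halo-Sox2a (26.0) and the control (39.8) shared one at 123.9 kb within the non-coding gene Gm38509. No peak of any list lay over the microRNA gene Mir1897 or the non-coding genes Gm3143 and Gm21388 within the window.

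Counted over the window, the shares of peaks without a counterpart had intervals that took in those of the whole lists. Of the 21 Halo-Sox2 peaks, 10 (47.6%, exact binomial 95% interval 25.7 to 70.2%) overlapped no control peak, against 49.3% of all Halo-Sox2 peaks. Of the 18 Halo-Sox2a peaks, 4 (22.2%, 6.41 to 47.6%) overlapped none, against 33.4%. These 4 stood at percentiles 13.5, 47.9, 8.13 and 8.13, so 1 was close to the middle of its list. Of the 10 Halo-Sox2a peaks at or above percentile 50, 0 lay outside the control list, against 13.6% genome-wide. These 10 include the peak over Sox2, and no interval was computed for so small a count. With lists of equal size the Halo-Sox2a share was 6.67% (1 of 15), against 27.7% genome-wide, and the Halo-Sox2 share 50.0% (8 of 16), against 45.9%. The window then held 16 Halo-Sox2, 15 Halo-Sox2a and 18 control peaks, so Halo-Sox2 no longer had the most. The equal size is that of the control list, so the cut removed no control peak. Of the 18 control peaks, 8 lacked a Halo-Sox2 counterpart (44.4%, against 37.5%) and 4 lacked a Halo-Sox2a counterpart (22.2%, against 22.0%). Between the transgene lines, 10 of the 21 Halo-Sox2 peaks had no Halo-Sox2a peak (47.6%, against 38.7%) and 7 of the 18 Halo-Sox2a peaks had no Halo-Sox2 peak (38.9%, against 35.4%). The intervals reflect counting error alone and treat neighbouring peaks as if independent.

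Of the 30 regions, 9 were in all lists (30.0%, against 32.1% of all regions) and 8 in Halo-Sox2 alone (26.7%, against 24.3%). Halo-Sox2a and the control shared 5 (16.7%, against 10.3%), the control alone had 3 (10.0%, against 10.2%), and Halo-Sox2a alone had 2 (6.67%, against 12.2%). Both transgene lists without the control held 2 (6.67%, against 8.95%), and Halo-Sox2 with the control held 1 (3.33%, against 1.90%). Each genome-wide share lay inside the exact binomial interval of the locus. The 8 regions of Halo-Sox2 alone were unevenly placed, with 6 of them within 20 kb of the gene and 0 in the distal control region, a split that was not tested.

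**Figure D4:**
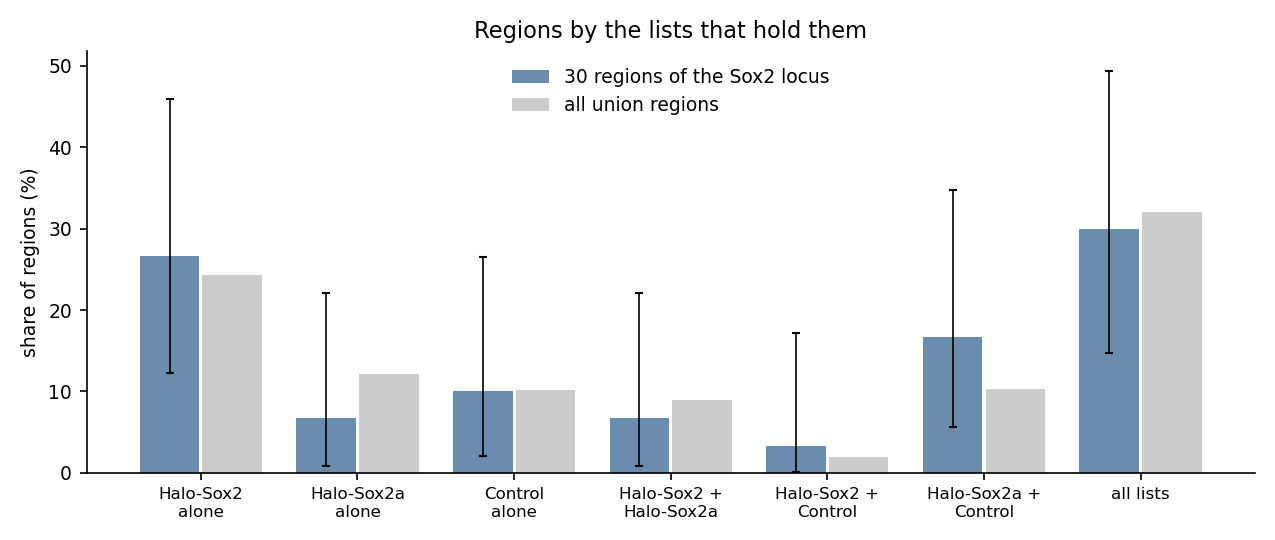
Share of regions (y axis, %) by the lists that hold them, for the 30 regions of the Sox2 locus (blue, with exact binomial 95% intervals for counting error) and for all 130664 union regions (grey). Every grey bar ends within the interval of the blue bar beside it.

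Where a region was held by both lists of a pair, the percentiles of the highest peak of each list were compared with a limit of 25 points. Over the gene this took the within-gene Halo-Sox2 peak at 81.7, beside 64.6 in the control. The Halo-Sox2 peak that covers the promoter, at 22.0, did not enter. Halo-Sox2 stood at least 25 points below the control in 4 of 10 regions, against 19.1% of all regions of that pair, and at least 25 points above it in 0, against 10.4%. The 4 were at -7.4, 106.9, 111.4 and 145.8 kb. Halo-Sox2 stood as far below Halo-Sox2a in 4 of 11 regions, against 18.4%, and as far above it in 0, against 10.2%. Halo-Sox2a stood at least 25 points above the control in 3 of 14 regions, against 11.8%, namely over the gene (by 35.4 points) and at 106.9 and 110.4 kb. Over the gene the peaks overlapped only in part, from 421 to 1370 bp with Halo-Sox2a and from -354 to 968 bp in the control. Reads from transgene and gene also cannot be told apart where they share sequence. Halo-Sox2a stood as far below the control in 1 region, at 18.5 kb, against 7.99%. The comparisons share libraries and are not independent of each other. No interval was computed for these small counts, and whether they depart from the genome-wide shares was not tested.

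The median change over these regions was -13.9 points for Halo-Sox2 against the control, beside -5.23 over all regions of that pair. It was -2.5 points for Halo-Sox2a against the control, beside 1.16, and -18.3 points for Halo-Sox2 against Halo-Sox2a, beside -5.29. Peaks also differed in width. Among regions with a single peak in each list, Halo-Sox2 peaks were 0.83 times as wide as Halo-Sox2a peaks at the median (1 of 10 wider), beside 0.96 genome-wide. They were 0.82 times as wide as control peaks (3 of 9 wider), beside 1.02, and Halo-Sox2a peaks were 1.05 times as wide as control peaks (7 of 14 wider), beside 1.08. By length, the window's peaks overlapped most between Halo-Sox2a and the control, with 5370 bp in common of 12382 bp covered by either (43.4%), beside 51.4% over the whole lists. Halo-Sox2 shared 4618 of 14400 bp (32.1%, beside 44.2%) with Halo-Sox2a and 4207 of 14753 bp (28.5%, beside 37.5%) with the control. The order of the pairs was that of the whole lists.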

How the data were processed

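The data are 3 peak lists, 1 per library. Per the submitters' processing notes, the build was mm10 and the tools named, without role or order, were STAR, SAMtools, MACS2 3.0.0a7, MACS3 and deepTools 3.3.0. The authors deposited a whole-number score per peak, whose scale is not given in the sources used here. Each peak name carries a single library's name, so calling was done per library. The last peak number exceeded the number of peaks by 50 or 51 in each list. Read depth is unknown, and a missing peak may lie just under a list's threshold.

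Positions were made 1-based. Peaks overlapping by at least 1 bp were shared, and merged into regions. Zones were assigned by a peak's middle. Genes and promoters came from RefSeq (GRCm38.p6), with 5 of the window's 8 genes in the promoter table and the first promoter used per gene. The window, zones and lists were chosen with earlier results of these data known. Named were all regions near Sox2 and in the distal zone, the highest region of each list in other zones, the window's genes and the 3 genes most like Sox2. Gm42205 and other low regions were added after their values were seen. Motif searches in the peaks were not run, since no genome sequence was used here. The alternatives covered overlap, list size, score, zone bounds, ranking and the limit in points. Python 3.11.15, numpy 2.4.6, pandas 2.3.3, scipy 1.17.1 and matplotlib 3.10.9 were used, and the overlap, merging and ranking functions were tested on simulated data.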

Additional observations from a re-analysis of the deposited data

How the results depend on the processing

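Of 74 recomputed values, 46 stayed put, counts by lying within 1.5 times and shares and percentiles by lying inside the exact binomial interval, which is narrow for percentiles, and 28 moved. Lists of equal size were cut to the length of the control list, so no control peak was removed. The window then held 16 Halo-Sox2, 15 Halo-Sox2a and 18 control peaks, which turned the order of Halo-Sox2 and the control. Of its Halo-Sox2a peaks, 6.67% had no control counterpart, against 27.7% genome-wide. The distal control region then held 1 Halo-Sox2 peak, and the regions of Halo-Sox2a alone numbered 0, those of both transgene lists 1 and those of Halo-Sox2a with the control 8. Merging over gaps of up to 500 bp gave 1 region of Halo-Sox2a alone and 1 of both transgene lists. Within 10 kb of the gene, 5 Halo-Sox2, 2 Halo-Sox2a and 3 control peaks were left. At or above percentile 50, the share of Halo-Sox2a peaks outside the control list was 0% of 10 peaks, against 13.6% genome-wide. Ranked among chromosome 3 peaks, the peak over Sox2 stood at percentiles 80.7, 100.000 and 62.6 (Halo-Sox2, Halo-Sox2a, control) and the highest distal peak at 49.7, 82.0 and 86.8. The highest distal peak was at 111.4 kb with Halo-Sox2 and with Halo-Sox2a. In the control it was at 95.3 kb, where Halo-Sox2 had no peak, so the distal values are not of the same region. Ranked among peaks of like width, the percentiles were 60.5, 100.000 and 19.0 over Sox2 and 56.0, 91.5 and 91.9 in the distal region. The control fell most over Sox2, where its peak is wide. With a limit of 15 points, 1 region stood higher with Halo-Sox2 than in the control, 1 higher than with Halo-Sox2a, and 3 lower with Halo-Sox2a than in the control. With 35 points, 2 regions stood lower with Halo-Sox2 than in the control and 2 lower than with Halo-Sox2a. Counting peaks up to 500 bp from a promoter, added after the data were seen, left 0 such gaps at Sox2 and 0.907% of promoters with one. The cause of these shifts was not tested, beyond what each setting removes. No paired analysis was possible because each group had 1 library. With no replicates and unknown depth, a low peak present in 1 list cannot be told from one just under the threshold of another.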

Other observations

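The peak over Sox2 was set beside the other top peaks of its list, a look added after its values were seen. Of the 84 regions in the top 0.1% of the Halo-Sox2a list, 3 had no control peak or stood below percentile 90 in the control. Besides Sox2, a region at an end of Eef1a1, which encodes a translation elongation factor (chromosome 9, 78481623 to 78482300 in the Halo-Sox2a list), ranked 8 with a score of 3626. The same region stood at percentile 88.7 with Halo-Sox2 (rank 10047) and 83.3 in the control (rank 12137). The third, on chromosome 2 from 3963817 to 3964799, lay over no annotated gene, ranked 70 with Halo-Sox2a and 33 with Halo-Sox2, and had no control peak. In the Halo-Sox2 list the same limits took in 31 of 89 regions. The limits themselves fix that these regions rank higher with Halo-Sox2a than in the control, and what they have in common was not tested.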
